A study of Mus musculus with 3 samples.

Results

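Glucocorticoid-induced genes and metallothioneins were described as 9 genes of the 32285 listed in the spatial data: Fkbp5, Tsc22d3, Sgk1, Klf9, Zbtb16, Mt1, Mt2, Cebpd and Per1. They were taken by symbol, and the question was whether they move as a group or apart between heart sections and within them. The assay was Visium, which captures the RNA of a tissue section on a grid of barcoded spots that can each hold several cells. There was 1 section per condition, each from the heart of a C57BL/6 mouse aged 8 weeks. The sham mouse received vehicle by gavage for 7 days and then an operation with needle passage but no ligation. The I/R mouse received vehicle for 7 days, and its left anterior descending artery was then tied for 30 min and reopened for 24 h. The SBP mouse had the same ligation and reperfusion after 7 days of gavage with the Shexiang Baoxin Pill, labelled MUSKARDIA. With 1 section per condition, mouse, section and condition cannot be told apart, and no test between conditions was possible. All 95% intervals below cover counting error only.

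Glucocorticoids bind the glucocorticoid receptor, which enters the nucleus and binds DNA at glucocorticoid response elements (GRE), inverted repeats of a short arm. Fkbp5, which encodes a co-chaperone that lowers the affinity of the receptor for its ligand, Tsc22d3 (GILZ), Sgk1, Klf9, Zbtb16, Per1 and Cebpd are widely used readouts of this pathway, and most of them also answer to other signals. Metallothioneins are small cysteine-rich proteins that bind zinc and copper, and their genes are switched on by metals through the factor MTF1 at metal response elements (MRE), by glucocorticoids, by cytokines and by oxidative stress. Per1 is in addition a core repressor of the circadian clock.

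With a minimum of 200 detected genes per spot, the sham section kept 2234 spots, I/R 2082 and SBP 1960, with 25118258, 30238530 and 21631280 unique molecular identifiers (UMIs). The level of a gene is its UMIs per 1000000 UMIs (CPM). Markers of cardiomyocytes were abundant in each section (5 of 5 detected, summed level 15794 to 20062 CPM). Spots were split by Ankrd1, a stress-induced gene of the cardiomyocyte sarcomere, at the sham 95th percentile of 27.0 Ankrd1 UMIs per 10000 UMIs. By construction 5.01% of sham spots were Ankrd1-high (112 spots), against 23.0% in I/R (479) and 16.6% in SBP (326). The Ankrd1-high spots were deeper and had a smaller share of UMIs from mitochondrially encoded genes than the other spots of their section, 45.2% against 48.9% (sham), 40.6% against 45.7% (I/R) and 43.9% against 46.9% (SBP). The part of these differences in the results below was not tested. In spots that mix cells, fewer cells of a type and less RNA per cell cannot be told apart.

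Upstream sequences were available for 7 of the 9 genes, as 15 RefSeq promoter windows on GRCm38.p6 that run from 250 bases before to 50 after an annotated start. The windows were searched on both strands for the full GRE (the arm AGAACA, 3 bases of any kind and the arm TGTTCT), the MRE core TGCACNC or TGCGCNC, and the E-box CACGTG, the site of the clock activators. No match of one of these motifs overlapped a match of another in the windows of the 7 genes. The full GRE was found in 3 of 32817 promoter windows of all genes (0.00914%), and 1 of these belonged to Sgk1. An MRE core was found in 25.7% of all windows and 3 or more in 1.97%, and the windows of Mt1 and Mt2 held 3 and 4. An E-box was found in 7.15% of all windows and in 3 windows of these genes, 1 each of Fkbp5, Sgk1 and Per1. The upstream stretches of Mt1, Mt2 and Sgk1 are shown because the metallothioneins had the highest spot correlation of the 9 genes and because, of the 7 genes searched, Sgk1 held the full element. Capitals mark the MRE core in Mt1 (chr8:94178839-94179081, plus strand) and Mt2 (chr8:94172368-94172617, plus strand) and the full GRE in Sgk1 (chr10:21993640-21993889, plus strand).
Mt1: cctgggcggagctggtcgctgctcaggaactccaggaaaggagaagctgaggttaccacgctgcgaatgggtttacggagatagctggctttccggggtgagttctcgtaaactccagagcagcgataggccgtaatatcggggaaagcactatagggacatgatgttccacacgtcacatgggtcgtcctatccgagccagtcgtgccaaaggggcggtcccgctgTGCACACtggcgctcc
Mt2: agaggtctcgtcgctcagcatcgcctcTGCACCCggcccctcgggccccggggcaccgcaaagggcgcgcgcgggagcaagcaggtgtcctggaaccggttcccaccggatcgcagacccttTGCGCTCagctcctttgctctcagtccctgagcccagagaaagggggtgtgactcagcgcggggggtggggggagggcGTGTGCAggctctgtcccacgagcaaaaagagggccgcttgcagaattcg
Sgk1: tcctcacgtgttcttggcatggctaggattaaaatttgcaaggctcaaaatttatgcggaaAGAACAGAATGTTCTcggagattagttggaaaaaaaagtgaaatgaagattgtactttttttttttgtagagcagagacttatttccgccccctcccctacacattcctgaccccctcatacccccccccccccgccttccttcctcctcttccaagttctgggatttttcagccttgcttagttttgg
The Sgk1 element lies from 189 to 175 bases before that start. Of the Mt1 cores, 1 is in the stretch shown and the other 2 lie just after the start, and of the Mt2 cores 3 are shown. A match of letters is a description of the window and not evidence of binding.

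Mt1 (chr8:94179082-94180327, GRCm38, plus strand) and Mt2 (chr8:94172664-94173568) are neighbours, 5514 bases apart. They were far higher in both injured sections than in sham. Mt2 stood at 68.7 CPM in the sham section, against 187 CPM after I/R and 184 CPM after SBP. Its intervals for I/R (182 to 192) and SBP (178 to 189) overlap each other and lie far above that of sham (65.5 to 72.0). Mt1 stood at 311 CPM in the sham section, against 585 CPM after I/R and 528 CPM after SBP. Its intervals do not overlap, and SBP lies between sham and I/R. As log2 ratios of CPM, Mt2 was 1.44 higher in I/R than in sham (95% interval 1.36 to 1.52) and 1.42 higher in SBP than in sham. For Mt1 these log2 ratios were 0.91 (0.87 to 0.95) and 0.77 (0.72 to 0.81). The 2 injured sections share the sham section as their reference. Set against each other, the injured sections gave Mt2 a log2 ratio of -0.02 (SBP over I/R, -0.08 to 0.04). Mt1 was 0.15 lower on the log2 scale in SBP (-0.18 to -0.11), a difference that turns to 0.00989 with TMM factors and to 0.0146 with median-of-ratios size factors.

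Cebpd, a C/EBP transcription factor of the acute phase and inflammatory response, followed the metallothioneins at the level of sections. Its sham level was 21.3 CPM (19.6 to 23.2), its I/R level 34.0 CPM (31.9 to 36.1) and its SBP level 32.2 CPM (29.8 to 34.7). Both injured sections lie above sham and overlap each other. Against sham the log2 ratio was 0.67 for I/R (0.52 to 0.82) and 0.59 for SBP (0.43 to 0.76), and SBP over I/R gave -0.08 (-0.22 to 0.06).

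The receptor readouts took other courses. Tsc22d3, which encodes the anti-inflammatory leucine zipper protein GILZ, had a sham level of 58.2 CPM (55.3 to 61.3), an I/R level of 51.9 CPM (49.3 to 54.5) and an SBP level of 66.9 CPM (63.5 to 70.4). I/R was the lowest and SBP the highest, with no overlap of the intervals. Klf9, which encodes a Krüppel-like repressor, had a sham level of 39.2 CPM (36.8 to 41.7), an I/R level of 27.8 CPM (26.0 to 29.8) and an SBP level of 32.9 CPM (30.5 to 35.4). I/R was again the lowest, but here SBP stayed below sham. Sgk1, which encodes a kinase that acts on ion channels and on cell survival, had a sham level of 32.0 CPM (29.8 to 34.3), an I/R level of 39.3 CPM (37.1 to 41.6) and an SBP level of 28.3 CPM (26.1 to 30.6). Its order was the reverse of that of Tsc22d3, with I/R the highest and SBP the lowest, although the intervals of sham and SBP overlap.

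Fkbp5 had a sham level of 5.53 CPM (4.65 to 6.53), an I/R level of 8.93 CPM (7.90 to 10.1) and an SBP level of 7.21 CPM (6.12 to 8.44), on 139, 270 and 156 UMIs. SBP lay between sham and I/R, with log2 ratios of 0.69 for I/R over sham (interval above 0), 0.38 for SBP over sham (0.04 to 0.72) and -0.31 for SBP over I/R (-0.60 to -0.02). In the same order the median of all genes was 0.24, 0.08 and -0.17. Both intervals that involve SBP contain the median of their comparison. Per1 had a sham level of 15.7 CPM (14.2 to 17.4), an I/R level of 15.9 CPM (14.5 to 17.4) and an SBP level of 28.6 CPM (26.4 to 31.0). Sham and I/R did not separate, and SBP was 0.86 higher than sham (0.68 to 1.05) and 0.85 higher than I/R (0.67 to 1.02) as log2 ratios. Zbtb16, which encodes the zinc finger repressor PLZF, rested on 27, 21 and 27 UMIs in the order sham, I/R and SBP. Its levels of 1.07, 0.69 and 1.25 CPM have overlapping intervals, so that no difference between whole sections was detectable at this depth.

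**Figure D1:**
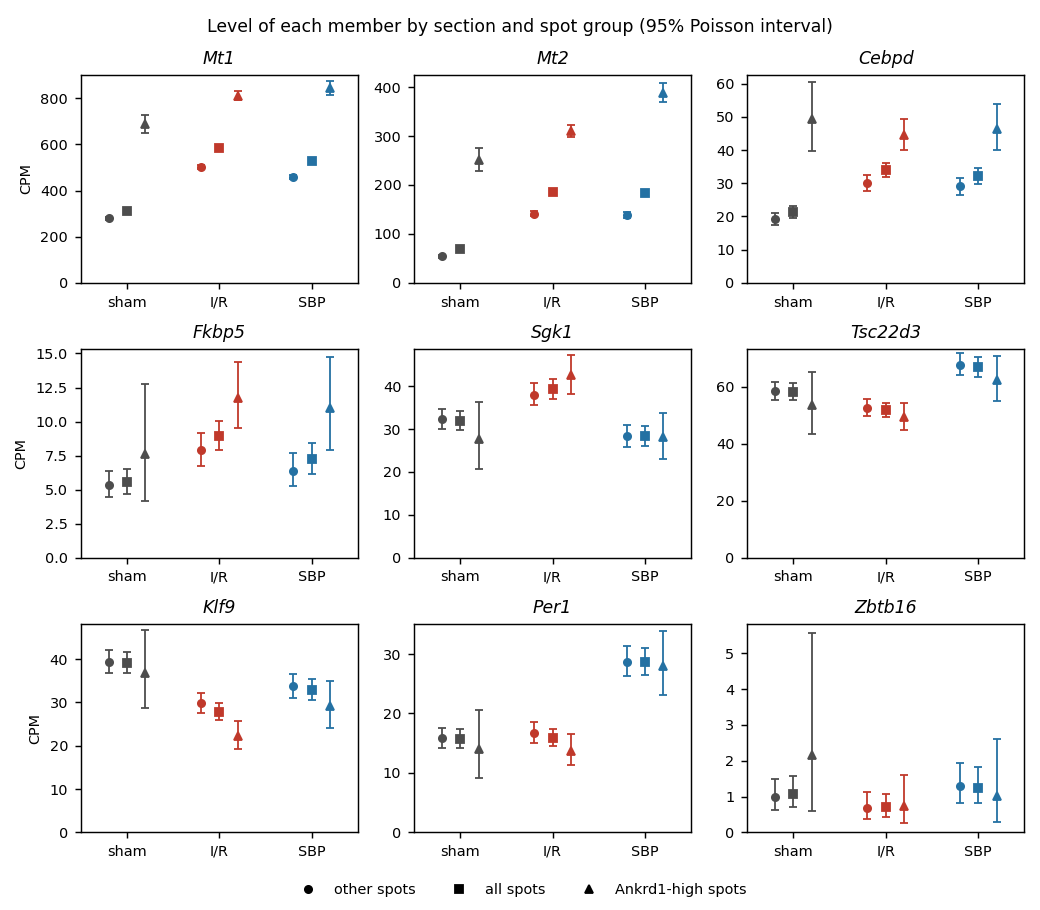
Level of each of the 9 genes in CPM (y axis, from 0) by section (x axis) in the other spots (circles), all spots (squares) and Ankrd1-high spots (triangles), with 95% Poisson intervals. Mt1, Mt2 and Cebpd step up from circles to triangles in every section, Per1 is high in SBP in all spot groups, and Klf9 steps down in I/R.

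The order of the sections over the 9 genes was therefore not shared. I/R was the highest section for Mt1, Mt2, Cebpd, Fkbp5 and Sgk1, and SBP the highest for Tsc22d3, Per1 and Zbtb16, while Klf9 was highest in sham. The differences between I/R and SBP for Mt2, Cebpd and Zbtb16 were within counting error. The log2 ratios for I/R over sham ran from -0.63 for Zbtb16 to 1.44 for Mt2, with a median of 0.30, where the median of 12231 genes was 0.24. I/R also had a smaller mitochondrial share (44.3% against 48.6% in sham), and its part in this upward shift of all genes was not tested. Relative to the median of all genes, Mt2 was 1.20 higher, Mt1 0.67, Fkbp5 0.45 and Cebpd 0.43. Sgk1 stood at 0.06, Per1 at -0.22, Tsc22d3 at -0.41, Klf9 at -0.73 and Zbtb16 at -0.87.

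At 1.5-fold, 4 of the 9 genes were higher in I/R than in sham (Mt2, Mt1, Fkbp5 and Cebpd), where 23.2% of all genes tested were. Genes counted in the background had at least 50 UMIs in the spots compared, which 8 of the 9 had here and between I/R and SBP, all but Zbtb16. Zbtb16 was the 1 gene lower, where 3.49% were, and its interval includes 0. With TMM or median-of-ratios factors Mt1 and Mt2 remained past 1.5-fold higher, while Fkbp5 and Cebpd did not, and Klf9 joined Zbtb16 among the lower. With these factors in turn, 13.0% and 12.8% of all genes were higher and 9.12% and 9.36% lower. For SBP over I/R, 2 genes were at or past 1.5-fold higher (Per1 and Zbtb16), where 1.95% of all genes were, and none was lower, where 13.8% were. Here the median of the 9 genes was -0.02 and that of all genes -0.17, and 7 of the 9 lay above the latter. For SBP over sham, 4 were higher (Mt2, Per1, Mt1 and Cebpd), where 5.31% of all genes were, and none lower, where 2.77% were. The median of the 9 genes was 0.38 and that of all genes 0.08.

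**Figure D2:**
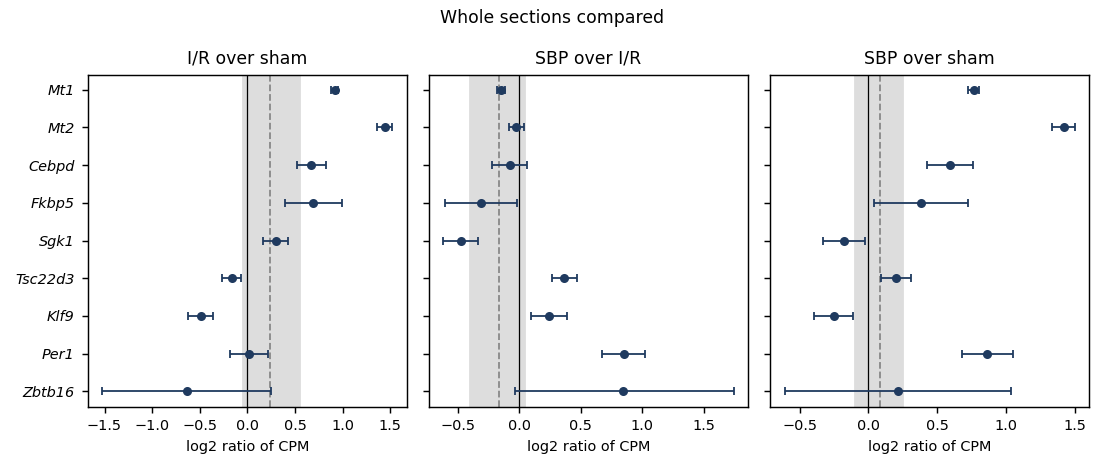
Log2 ratio of CPM (x axis, each panel with its own range) of the 9 genes (y axis) for each pair of sections, with 95% conditional binomial intervals. The dashed line is the median and the grey band the middle 50% of all genes tested, and the genes lie on both sides of it in every panel.

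Within a section, Mt2, Mt1 and Cebpd were higher in the Ankrd1-high spots of all 3 sections, including sham, and the step was largest in sham. Mt2 stood at 251 CPM in Ankrd1-high and 54.2 CPM in other spots of sham, at 309 and 141 CPM in the I/R section, and at 388 and 138 CPM in the SBP section. The log2 ratio of high over other spots was 2.21 with sham (2.05 to 2.37), 1.13 with I/R (1.06 to 1.21) and 1.49 with SBP (1.39 to 1.58). Mt1 gave 688 and 281 CPM for sham, 811 and 501 CPM for I/R, and 844 and 458 CPM for SBP. Its log2 ratios were 1.29, 0.69 and 0.88, the same order as for Mt2. Cebpd gave 49.3 and 19.1 CPM for sham, 44.5 and 30.0 CPM for I/R, and 46.4 and 29.0 CPM for SBP. Its levels in Ankrd1-high spots thus overlapped between the 3 sections. In the other spots both injured sections lay above sham, and the intervals of I/R and SBP overlapped.

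Fkbp5 was also higher in Ankrd1-high spots, at 11.7 against 7.89 CPM for I/R (log2 ratio 0.58, 0.20 to 0.94) and, with a wider interval, for SBP (0.78, interval above 0). In sham the log2 ratio of 0.50 rested on 14 UMIs in Ankrd1-high spots, and its interval includes 0. In I/R this difference turned to -0.11 when the mitochondrially encoded genes were left out of the denominator of Fkbp5 and of Ankrd1. Klf9 was lower in the Ankrd1-high spots of I/R (22.3 against 29.9 CPM, log2 ratio -0.43, -0.67 to -0.19), and its interval included 0 in sham and in SBP. For Tsc22d3, Sgk1 and Per1 the interval included 0 in each section, with log2 ratios between -0.29 and 0.16. All of these 3 except Sgk1 in I/R had a ratio below 0, where the median of all genes was 0.31 (sham), 0.24 (I/R) and 0.21 (SBP).

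At 1.5-fold, 4 of the 9 genes were higher in the Ankrd1-high spots of sham (Mt2, Cebpd, Mt1 and Zbtb16, the last on 4 UMIs), where 28.3% of all genes were. In I/R these were Mt2 and Mt1, 2 of 9 where 13.6% of all genes were. In SBP they were Mt2, Mt1, Fkbp5 and Cebpd, 4 of 9 where 16.6% of all genes were. None was at or past 1.5-fold lower in any section, where 6.08%, 3.88% and 5.02% of all genes were. By the share of tested genes with a lower ratio, Mt2 stood at 99.6% (sham), 98.8% (I/R) and 99.6% (SBP), and Klf9 at 22.2%, 6.71% and 16.6%.

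**Figure D3:**
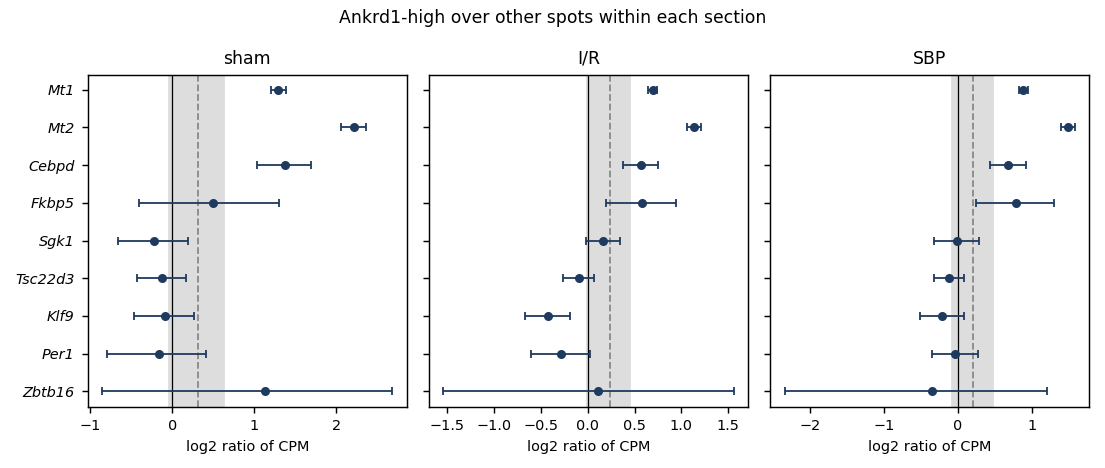
Log2 ratio of CPM in Ankrd1-high over other spots (x axis, each panel with its own range) of the 9 genes (y axis) in each section, with 95% conditional binomial intervals, and the median (dashed) and middle 50% (grey) of all genes tested. Mt2, Mt1 and Cebpd lie to the right of the grey band and Tsc22d3, Klf9 and Per1 lie left of the dashed line in every panel.

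The 2 metallothioneins did not change in a fixed proportion. Mt2 made up 18.1% of the summed Mt1 and Mt2 UMIs with sham (95% Clopper-Pearson interval 17.3 to 18.9), 24.2% with I/R (23.6 to 24.7) and 25.8% with SBP (25.1 to 26.5). In the other spots its share was 16.2% (sham), 22.0% (I/R) and 23.2% (SBP). In the Ankrd1-high spots it was 26.7%, 27.6% and 31.5%, above the other spots of the same section in each case. The longest run of bases that the reference transcripts of Mt1 and Mt2 share is 20, so that reads of the 2 genes can be told apart over most of their length.

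Ordered into quintiles by Ankrd1, the spots of a section gave a graded picture. From the lowest to the highest quintile Mt2 went from 27.2 to 171 CPM (sham), from 61.9 to 306 CPM (I/R) and from 41.5 to 372 CPM (SBP), with each step upward in all sections. In sham the step from the fourth (53.4 CPM) to the highest quintile was the largest, whereas in I/R the fourth (293 CPM) was already near the highest. Mt1 reached 816 CPM in the fourth and 806 CPM in the highest quintile of I/R. Cebpd and Fkbp5 had their highest values in the fourth quintile of both injured sections, at 49.1 and 12.8 CPM in I/R and at 51.4 and 11.9 CPM in SBP. For both genes these intervals overlapped those of the highest quintile. Klf9 fell from quintile to quintile in I/R except for a flat step in the middle, from 35.0 to 22.0 CPM, while in sham it ended at 38.8 CPM from 37.2 CPM. Per1 and Tsc22d3 had no such course, with log2 ratios of the highest over the lowest quintile between -0.22 and 0.11 for Per1 and between -0.11 and 0.01 for Tsc22d3.

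**Figure D4:**
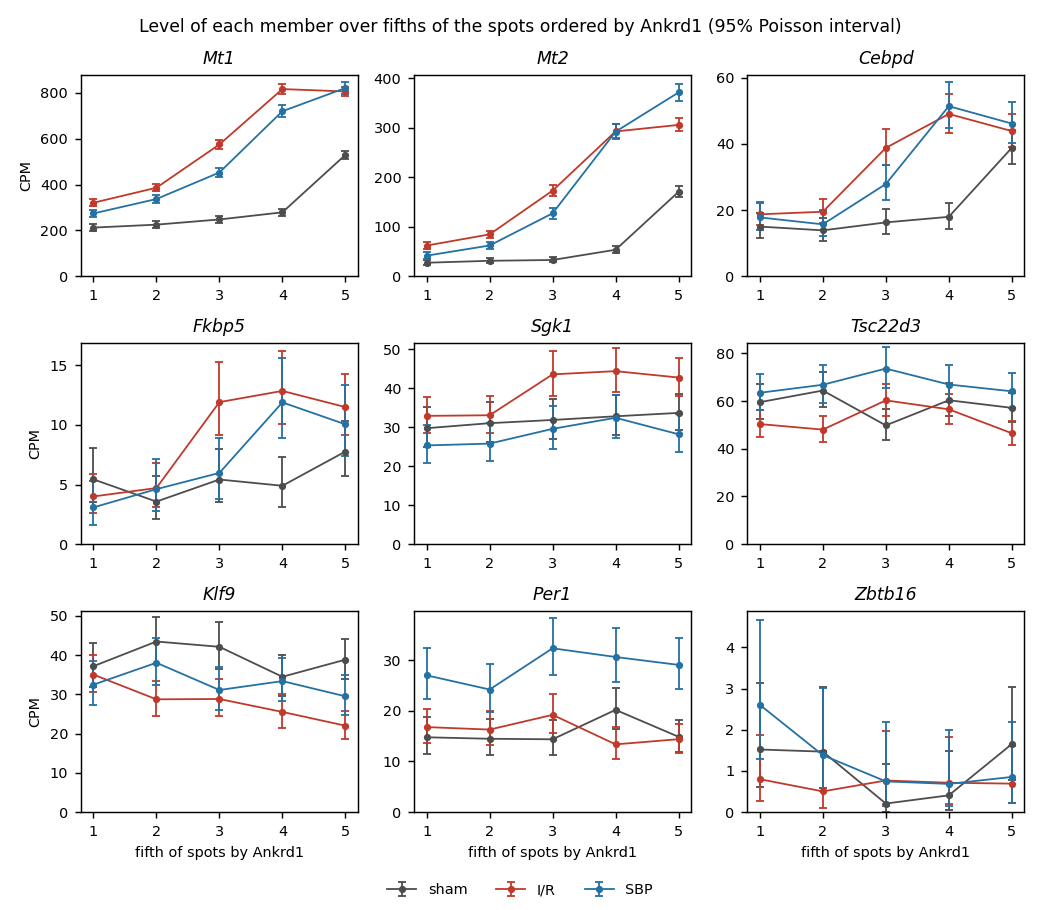
CPM of the 9 genes (y axis, from 0) over quintiles of the spots of each section ordered by Ankrd1 (x axis, 1 lowest), with 95% Poisson intervals, for sham (grey), I/R (red) and SBP (blue). The metallothionein curves climb at lower quintiles in I/R and SBP than in sham, where the quintiles are bounded at lower Ankrd1 levels. The Per1 curves run flat with SBP on top.

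Since the injured sections hold more Ankrd1-high spots, the sections were also compared at matched Ankrd1, in 4 bins bounded by the sham median, 80th and 95th percentiles. Mt2 remained higher in I/R than in sham in each bin, by log2 ratios of 1.09, 1.35, 0.91 and 0.30 from the lowest to the highest bin, and higher in SBP than in sham by 0.71, 1.29, 1.10 and 0.63. The difference between sections was thus smallest where Ankrd1 was highest, a bin in which the I/R over sham median of all genes was 0.13. In SBP over I/R, Mt2 went from -0.38 (-0.57 to -0.19) in the lowest bin to 0.33 (0.23 to 0.42) in the highest, so that the level ratio near 0 of the whole sections held opposite differences. Cebpd was level between I/R and sham in the highest bin (-0.15, -0.48 to 0.20) and higher in I/R in the 2 middle bins (0.73 and 0.43). In the lowest bin its interval included 0 (0.27, -0.05 to 0.59).

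Per1 was higher in SBP than in I/R in all 4 bins, by log2 ratios of 0.80, 0.61, 0.94 and 1.03, and Tsc22d3 by 0.44, 0.33, 0.31 and 0.34. For Sgk1 all 4 bins of SBP lay below those of I/R, by -0.35, -0.45, -0.46 and -0.60. None of these 12 intervals includes 0. Klf9 was lower in I/R than in sham in all 4 bins (-0.26, -0.50, -0.50 and -0.73), with no interval including 0. Other section differences of these genes did not separate in every bin. The log2 ratio of Tsc22d3 for I/R over sham was -0.30 in the lowest bin and had an interval including 0 in the other 3, that of Sgk1 included 0 in the 2 lowest bins, and Klf9 was at 0.02 for SBP over I/R in the lowest bin. Zbtb16 was higher in SBP than in I/R in the lowest bin (1.59, 0.17 to 3.24), on 16 and 6 UMIs. Its intervals for the other bins and pairs of sections included 0.

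A second axis separated genes that Ankrd1 left together. Spots were called injury-high above the sham 95th percentile of the summed level of 10 injury genes (of the kind of Timp1, Lgals3, Spp1, Tnc and Fn1), which gave 4 groups of spots with Ankrd1. In I/R, 1152 spots were high in neither, 156 in Ankrd1 only, 323 in both and 451 in injury genes only. Fkbp5 was at 3.99 CPM in the spots of I/R high in neither, 5.03 CPM with Ankrd1 only, 15.6 CPM with both and 23.1 CPM with injury genes only. On 70, 15, 81 and 104 UMIs, it was higher in both groups with high injury genes, and its ratio for Ankrd1 only had an interval that includes 0. Sgk1 was at 30.3, 36.2, 46.2 and 68.2 CPM in the same order, and its level in injury-only spots was 72.8 CPM in sham (61 UMIs) and 62.5 CPM in SBP.

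Cebpd was higher with either, at 18.3 CPM in neither, 32.5 CPM with Ankrd1 only, 51.4 CPM with both and 76.0 CPM with injury genes only. Mt2 was also higher with either, at 294 CPM with Ankrd1 only (275 to 314) against 88.5 CPM in neither. It stood at 318 CPM with both and at 346 CPM with injury genes only (329 to 364). Mt1 was highest in I/R with Ankrd1 only (860 CPM) and lower in injury-only spots (756 CPM). Klf9 was lowest where both were high (20.8 CPM) and at 21.8 CPM in injury-only spots, against 32.0 CPM in neither. Tsc22d3 was at 47.1 CPM in neither and 74.9 CPM in injury-only spots, and SBP was higher than I/R in the spots of neither (66.0 CPM). The group of Ankrd1 alone therefore held high Mt1, Mt2 and Cebpd with Fkbp5, Sgk1 and Tsc22d3 whose ratios to neither had intervals that include 0.

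The injury-only spots of I/R had 25.5% of their UMIs from mitochondrially encoded genes, against 50.9% in the spots high in neither, and the median of all genes was 1.08 higher there on the log2 scale. Against that median Fkbp5 stood at 1.46, Cebpd at 0.98, Mt2 at 0.89, Sgk1 at 0.09, Mt1 at -0.28, Tsc22d3 at -0.41, Per1 at -0.62 and Klf9 at -1.63. In the injury-only spots of sham and SBP, Sgk1 stood 0.56 and 0.70 above the median of all genes, and Tsc22d3 below it, at -0.36 and -0.27. In Ankrd1-only spots of I/R the shift of all genes was 0.29, and Mt2 (1.44), Mt1 (0.69) and Cebpd (0.54) stayed above it.

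**Figure D5:**
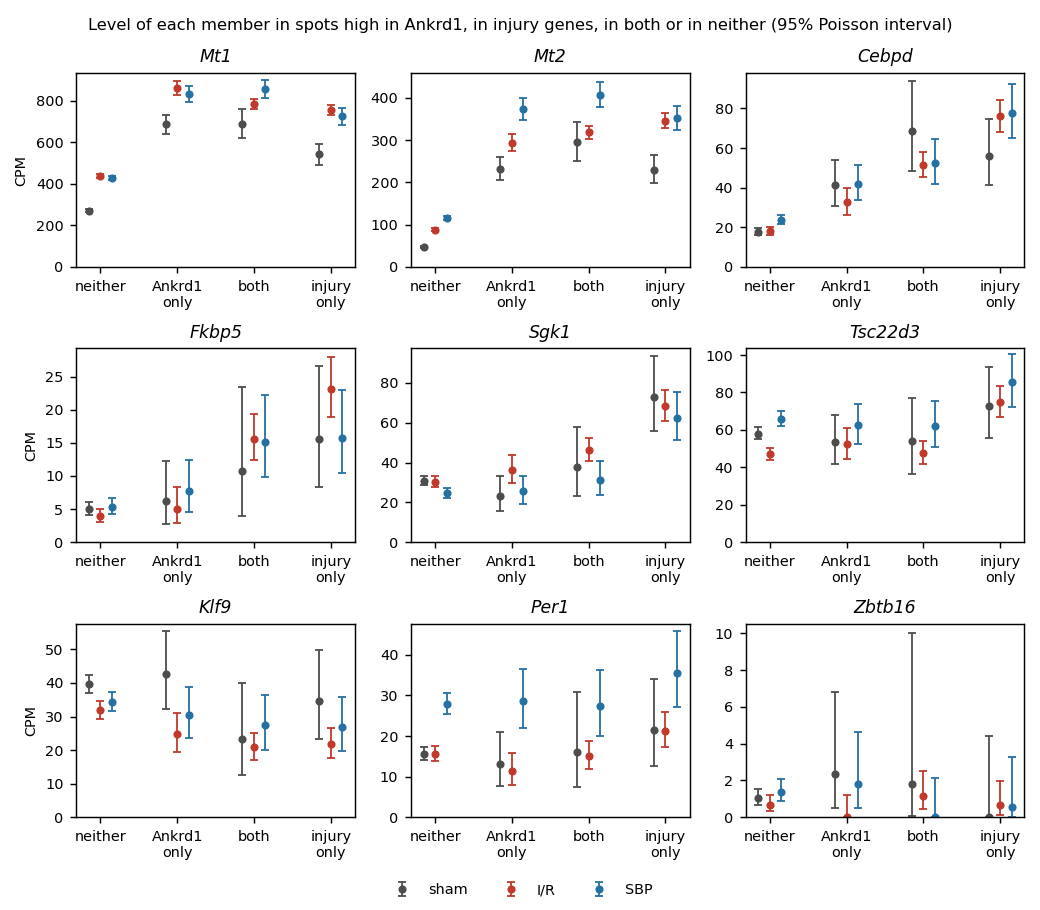
CPM of the 9 genes (y axis, from 0) in spots high in neither Ankrd1 nor the injury genes, in Ankrd1 only, in both and in injury genes only (x axis), for sham (grey), I/R (red) and SBP (blue), with 95% Poisson intervals. Fkbp5, Sgk1 and Tsc22d3 are highest in injury-only spots, Mt1 and Mt2 are high in all 3 groups other than neither, and Per1 is highest in SBP in each group.

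Markers of other cell types also differed between sections and spots. The summed level of the 4 neutrophil markers was 27.2 CPM (sham), 236 CPM (I/R) and 115 CPM (SBP), and that of the 5 macrophage markers 301, 402 and 296 CPM, with all of these markers detected in each section. In the tenth of I/R spots richest in neutrophil markers, Fkbp5 was higher than in the rest by a log2 ratio of 1.98 (1.51 to 2.42), Cebpd by 1.69 (1.44 to 1.92), Sgk1 at 89.4 against 36.2 CPM and Mt2 by 1.07 (0.95 to 1.19), where the median of all genes was 0.89. Klf9 was lower there by 0.96 on the log2 scale (-1.59 to -0.40). In the tenth richest in macrophage markers of I/R, Fkbp5 was higher by 1.99, Sgk1 by 1.15, Mt2 by 0.70 and Mt1 by 0.36, where the median of all genes was 0.85. In the tenth richest in cardiomyocyte markers, Mt2 was lower in every section (log2 ratio -1.01 (sham), -1.47 (I/R) and -1.38 (SBP)), and so was Mt1 (-0.35, -0.59 and -0.67). There the median of all genes was -0.03 (sham), -0.34 (I/R) and -0.05 (SBP). Fkbp5 was also higher in the 209 I/R spots richest in endothelial (1.25, 0.79 to 1.69) or smooth muscle markers (1.46, 0.99 to 1.90). There the median of all genes was 0.33 and 0.57. In the other sections the endothelial interval of Fkbp5 included 0 (sham 0.14, SBP -0.13). Its smooth muscle ratio was 0.80 in sham (0.09 to 1.46), and the interval included 0 in SBP (0.45). In I/R its interval included 0 for pericyte and blood markers, and Fkbp5 was lower with cardiomyocyte markers (-1.37, -2.45 to -0.47). Against the median of all genes, Cebpd in I/R stood at 0.86 with fibroblast and 0.80 with neutrophil markers. These values were 1.24 and 0.38 in sham, and 0.62 and 0.69 in SBP. The part of these cells in the results was not tested. Markers of T cells, B cells, adipocytes and mesothelium were at or near 0, with summed levels of at most 5.46 CPM over all spots of a section.

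Spot by spot, after thinning each spot to 6500 UMIs, Mt1 and Mt2 were the 1 pair of the 9 genes with a Pearson correlation over 0.2 in any section, at 0.24 with sham (2102 spots), 0.42 with I/R (1880) and 0.46 with SBP (1747). The other 35 pairs had a median near 0 (0.0092 (sham), 0.0014 (I/R) and -0.0013 (SBP)), and the highest of them was Mt2 with Cebpd (0.11, 0.18 and 0.15). With Ankrd1, Mt2 had a correlation of 0.36, 0.46 and 0.52 and Mt1 of 0.31, 0.47 and 0.48, while the other 7 genes reached at most 0.18. These values describe spots of 1 library each. The genes were sparse to different degrees. Counting noise at low counts pulls a correlation towards 0, so the values near 0 do not show that the genes vary independently. At this depth Fkbp5 had a UMI in 3.43% (sham), 4.63% (I/R) and 3.61% (SBP) of spots, and Zbtb16 in under 1%. Unthinned, the shares for Fkbp5 were 5.60%, 11.1% and 6.99%. Mt2 had a UMI in 26.7%, 54.9% and 50.2% of thinned spots (37.3%, 73.1% and 61.4% unthinned).

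Over the 6 levels of each gene (Ankrd1-high and other spots of 3 sections, on a log2 scale centred per gene), the likeness of patterns was measured as Euclidean distance among 10267 genes. For Mt1 the nearest genes were Resf1 (0.25), Morf4l2 (0.26) and Mob3a (0.27), and the nearest of the other members was Cebpd, at rank 28. For Mt2 they were 2200002D01Rik (0.24), Fkbp11 (0.46) and Aldh1a2 (0.59), with Mt1 at rank 28, and for Cebpd Comtd1 (0.18), Ttc37 (0.22) and Scd2 (0.23), with Mt1 at rank 31. For Per1 the nearest was Pla2g4e (0.35), and Tsc22d3 came at rank 114. For the others the nearest member came at rank 1106 or later. A rank also depends on how many genes share a similar pattern, and the distances themselves gave another order. They were 0.35 between Mt1 and Cebpd, 0.59 between Tsc22d3 and Klf9, 0.60 between Fkbp5 and Mt1, 0.76 between Tsc22d3 and Per1, 0.90 between Tsc22d3 and Sgk1, and 0.97 between Mt1 and Mt2. The genes nearest to Klf9 were Prxl2a (0.06), Ablim1 (0.12) and Coq7 (0.12), those nearest to Tsc22d3 were Tnnt2 (0.07), Nfatc2 (0.12) and H2-Ke6 (0.12), those nearest to Fkbp5 were Ncl (0.08), Tpm3-rs7 (0.09) and Cct5 (0.11), and those nearest to Sgk1 were Snapc5 (0.11), Tyw3 (0.16) and Itga6 (0.17). Zbtb16 was too sparse to be searched.

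The transcript of the receptor itself was level in CPM, without allowance for the shift of all genes. Nr3c1, the glucocorticoid receptor, had sham, I/R and SBP levels of 35.8, 33.4 and 33.7 CPM, with 0 inside the interval of all 3 log2 ratios. Of the 9 genes tested for the receptor and its handling, Hsp90aa1, an inducible chaperone of the receptor, was at or past 1.5-fold higher in I/R than in sham (204 against 87.7 CPM) and Nr3c2, the mineralocorticoid receptor, lower (2.55 against 5.06 CPM). In that comparison 23.2% of all genes were higher and 3.49% lower. In SBP over I/R Hsp90aa1 and Nr3c2 went the other way, at 128 and 4.39 CPM in SBP, where 13.8% of all genes were lower and 1.95% higher. Hsd11b1, which regenerates active glucocorticoid in cells, had sham, I/R and SBP levels of 18.8, 14.8 and 20.1 CPM. The median log2 ratio of the 9 genes tested was -0.10 (I/R over sham) and 0.01 (SBP over I/R), where that of all genes was 0.24 and -0.17.

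Of 19 other genes induced by glucocorticoids, 4 were at or past 1.5-fold higher in I/R than in sham (Angptl4, Cdkn1a, Bcl6 and Zfp36) and 3 lower (Pdk4, Pik3r1 and Ptgds), where 23.2% and 3.49% of all genes were. The median log2 ratio was 0.19 and that of all genes 0.24. Angptl4, a lipase inhibitor, had sham, I/R and SBP levels of 7.64, 28.4 and 11.1 CPM, and Cdkn1a, the cell cycle inhibitor p21, of 9.40, 31.4 and 17.8 CPM. Ptgds, a prostaglandin synthase, went the other way, from 466 CPM with sham to 186 CPM with I/R and 255 CPM with SBP. Pdk4, a kinase that restrains glucose oxidation, fell in steps from 41.1 to 21.5 to 12.0 CPM. In SBP over I/R 1 gene was higher (Pik3r1) and 6 were lower (Dusp1, Errfi1, Pdk4, Angptl4, Cdkn1a and Zfp36), where 1.95% and 13.8% of all genes were, with a median of -0.16, the same as that of all genes to within 0.01. Dusp1 and Zfp36, early-response genes, were at 47.3 and 21.7 CPM in I/R and at 25.9 and 12.9 CPM in SBP.

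Of the zinc list, 5 genes were tested. Of these, 1 was at or past 1.5-fold higher in I/R than in sham, where 23.2% of all genes were. This was Slc39a14, a zinc importer induced by inflammation (44.3 against 27.1 CPM), which stood at 32.5 CPM after SBP. It was also higher in the Ankrd1-high spots, by log2 ratios of 1.03 (sham), 0.51 (I/R) and 0.78 (SBP). There the median of all genes was 0.31, 0.24 and 0.21. Mtf1, the metal-sensing factor, had levels of 6.97, 9.13 and 7.81 CPM in the same order of sections. Mt3, the metallothionein of brain, rested on 33 to 57 UMIs a section.

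Of 11 genes of the IL-6 and acute phase response, 7 were at or past 1.5-fold higher in I/R than in sham (Socs3, Stat3, Osmr, Il6, Il1b, Cebpb and Saa3), where 23.2% of all genes were, with a median of 0.80. In the Ankrd1-high spots of sham, 10 of the 10 tested were higher, where 28.3% of all genes were, with a median of 1.31 where that of all genes was 0.31. In those of I/R 4 of 11 were higher, where 13.6% of all genes were, and in those of SBP 5 of 10, where 16.6% were. In SBP over I/R, Socs3, Il6 and Il1b were lower, where 13.8% of all genes were, and none was higher, where 1.95% were. In the other spots alone Saa3 was past 1.5-fold higher in SBP than in I/R. Socs3, the feedback inhibitor of STAT3 signalling, had sham, I/R and SBP levels of 3.94, 13.2 and 7.21 CPM. Saa3, an acute phase protein, had levels of 3.62, 7.90 and 11.7 CPM. Of 9 hypoxia genes tested, Slc2a1 and Pfkfb3 were higher in I/R than in sham and none was lower, a share near the 23.2% of all genes that were higher, with a median of -0.10.

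Per1 was set beside 8 other clock genes driven through E-boxes and D-boxes. Of these, 7 were at or past 1.5-fold higher in SBP than in I/R (Per2, Per3, Dbp, Tef, Nr1d1, Nr1d2 and Ciart), where 1.95% of all genes were. The median log2 ratio of the 8 genes was 0.94, beside the 0.85 of Per1 and the -0.17 of all genes. For I/R over sham the median of the 8 genes was -0.45, where that of all genes was 0.24, while Per1 stood at 0.02. Ciart was lower past 1.5-fold, where 3.49% of all genes were. For SBP over sham 5 of the 8 were higher (Per2, Per3, Dbp, Ciart and Bhlhe41), where 5.31% of all genes were. Their list had a median of 0.65 beside the 0.86 of Per1 and the 0.08 of all genes. The hour of collection was not given in the sources used here, and section and hour cannot be told apart. Between Ankrd1-high and other spots no gene of this list was at or past 1.5-fold higher in any section, while 3 of 8 were lower in I/R (Per3, Dbp and Ciart), where 3.88% of all genes were, and 2 of 8 in SBP (Per3 and Ciart), where 5.02% were.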

How the data were processed

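The deposited values are raw UMI counts per gene and spot, made by the authors with Space Ranger 1.3.0 on build mm10 (submitters' processing notes and file headers), with only spots over tissue kept. The study's methods give a different Space Ranger version and a human genome, while the files list 32285 mouse genes, of which 32235 identifiers were found in GENCODE M21 (GRCm38). A minimum of 200 detected genes per spot removed 3 spots (sham), 1 (I/R) and 2 (SBP). CPM is the summed UMIs of a gene over a section or spot group relative to the sum over all genes. Median UMIs per spot were 10645 (sham), 14672 (I/R) and 10652.5 (SBP). Barcodes occur in several sections (1207 to 1568 per pair) because they mark positions of the slide array and not cells.

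The 95% intervals are exact Poisson for levels, Clopper-Pearson for shares and conditional binomial for ratios. They cover counting error only. With 1 section per condition no p-value was computed. Genes with at least 50 UMIs in the spots compared were tested against 1.5-fold. The code for the ratios was run on simulated Poisson counts, which hold counting error only. That run cannot show how the intervals behave with variation between spots or mice. Spots were thinned with a fixed seed to 6500 UMIs, which left out 132, 202 and 213 shallower spots. Spots were not clustered, given cell type names or screened for doublets. Fkbp5 overlaps 2 annotated genes on each strand, Klf9 overlaps 1 on its own strand, and Mt2 and Cebpd each overlap 1 on the other strand, where counting may be uncertain. Spot positions were not used.

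The members and gene lists were chosen with earlier results of these data known. All 9 members are named, and of each list the genes at or past 1.5-fold in the contrast described, or else the gene with most UMIs, with a few further list genes chosen after their values were seen. The 3 genes of nearest pattern are named for each member with at least 500 UMIs, except that some gene names are not reported here. The comparison at matched Ankrd1 and the split by injury genes were added after the values by section were seen. Of the marker lists, fibroblast (603 to 769 CPM summed), endothelial (642 to 715), pericyte (245 to 319), smooth muscle (119 to 312), atrial (461 to 1384) and blood markers (2740 to 3871) were also measured. Alternatives were mitochondrially encoded genes left out of the denominator, TMM factors (edgeR 4.0.16), median-of-ratios size factors (DESeq2 1.42.0), equal weight per spot, other filters on spots, no filter on genes or at least 200 UMIs, other thresholds and measures for the Ankrd1-high spots, the 1% of spots richest in the gene left out, a 2-fold threshold, and unthinned spots. Sequences came from RefSeq promoter windows on GRCm38.p6. The Mt1 stretch stops before the annotated start of the gene, at 243 bases. Computations used Python 3.11.15, numpy 2.4.6, scipy 1.17.1, pandas 2.3.3, matplotlib 3.10.9 and R 4.3.3.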

Additional observations from a re-analysis of the deposited data

Results flagged for a closer look

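Sgk1 and Tsc22d3 lay on opposite sides of sham in the 2 injured sections, with both intervals excluding 0. Relative to sham, the log2 ratio of Sgk1 was 0.30 after I/R and -0.18 after SBP, and that of Tsc22d3 was -0.17 after I/R and 0.20 after SBP. With median-of-ratios factors the Sgk1 value after I/R was 0.0604 and with TMM factors 0.0678, both nearer to 0 than the counting error of the ratio, so that the opposite sides of Sgk1 do not hold under these factors. Both comparisons share the 1 sham section. With 1 section per condition the difference was not tested. On counting error alone, SBP lay below I/R for Sgk1 (log2 ratio -0.47, -0.62 to -0.33) and above it for Tsc22d3 (0.37, 0.26 to 0.47).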

How the results depend on the processing

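No paired analysis was possible because a condition holds only 1 section. Of 428 recomputed ratios of single genes, 342 lay inside the 95% interval of the reported ratio, and 83 left it in the same direction or from an interval that includes 0. The other 3 changed sign from an interval that excludes 0: Mt1 in SBP over I/R with TMM factors (0.00989) and with median-of-ratios factors (0.0146), and Fkbp5 in the Ankrd1-high spots of I/R without mitochondrially encoded genes (-0.11). Ratios whose interval includes 0 also changed sign in some settings and are not among these 3. Per1 in I/R over sham did so in 3 settings and Mt2 in SBP over I/R in 3. Sgk1 in the Ankrd1-high spots of sham went from -0.23 to 0.95 with the injury list in place of Ankrd1. Mt2, Mt1 and Cebpd were higher in I/R than in sham, in SBP than in sham and in Ankrd1-high spots of each section under each alternative run. The smallest of these values was 0.19, for Cebpd in the Ankrd1-high spots of I/R without mitochondrially encoded genes. The main ratio there was 0.57 (0.38 to 0.75).

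For I/R over sham the median of the 9 genes was 0.0678 with TMM and 0.0604 with median-of-ratios factors, which put the median of all genes at 0.01 and 0.004. The count past 1.5-fold was 2 higher and 2 lower with either factor and without mitochondrially encoded genes, 0 lower with equal weight per spot, and 1 higher and 0 lower at 2-fold. With TMM factors 13.0% of all genes were higher and 9.12% lower, and with median-of-ratios factors 12.8% and 9.36%. Of all genes past 1.5-fold, 86.9% were higher, against 58.8% with TMM and 57.7% with median-of-ratios factors. For SBP over I/R the median was 0.13 with TMM, 0.14 with median-of-ratios factors and -0.14 with equal weight per spot, and 0 genes were past 2-fold higher. The share of calls that were higher went from 12.4% to 32.8% and 33.4%. For SBP over sham 1 gene was past 2-fold higher, and that share went from 65.7% to 51.4% and 50.9%. No share of all genes was computed at 2-fold, with equal weight per spot or without mitochondrially encoded genes.

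In Ankrd1-high over other spots, with the sham 99th percentile 2 genes were past 1.5-fold lower in sham and 1 in SBP. With the sham 90th percentile 4 were higher in I/R and 1 lower in SBP, and with equal weight per spot 1 was lower in SBP. Without mitochondrially encoded genes the I/R median was -0.0370 with 1 gene higher. With the injury list in place of Ankrd1 the median of the members was 0.67 in I/R and 0.73 in SBP. In that setting 6 genes were higher in I/R, 1 lower in sham and 1 lower in SBP. The share of all genes past 1.5-fold was not computed for these settings, so the counts have no background. All genes shift in spots high in injury genes. Over spots high in neither, the median of all genes was 1.08 (I/R) and 0.64 (SBP) higher in injury-only spots, as log2 ratios. In spots high in both it was 0.69 and 0.37 higher. For the split by the injury list itself the median of all genes was not computed. In the tenth of I/R spots richest in injury genes it was 0.98. Against it, Fkbp5 (0.96), Cebpd (0.46) and Sgk1 (0.40) stood above. Mt2 and Tsc22d3 (both -0.09), Zbtb16 (-0.32), Mt1 (-0.66), Per1 (-0.84) and Klf9 (-1.64) stood below. Without the 1% of spots richest in each gene the SBP median of the members was 0.69. This median moved because Zbtb16, on 4 UMIs, changed sides of the gap between Sgk1 and Cebpd. That setting gave no ratio for Zbtb16 where I/R enters, since no UMI was left.

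Depth limits most what can be said of Zbtb16 and of Fkbp5 in the Ankrd1-high spots of sham, with 14 UMIs. The levels of Zbtb16 rest on 4 to 27 UMIs. Its intervals include 0 in all 6 ratios between whole sections and of Ankrd1-high over other spots.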
